A study of Mus musculus with 6 samples.

Results

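The ribosome biogenesis and nucleolar genes described here are 39 genes listed by function, with no measured value in the rule that names them: they encode the proteins that transcribe ribosomal RNA, cut and modify it, and assemble it into subunits. The 39 genes were taken from 19949 genes with counts in the series, and a gene was kept when it had 10 or more expected counts (estimated reads per transcript, summed over each gene's RefSeq transcripts) in at least 3 of the 6 libraries. All 39 met that rule and all 39 were among the 15066 genes that passed the test's own filter on low counts. The lowest value was 46 expected counts, for Nle1 in a WT library.

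The samples were colon tissue of STAT6-/- mice, which carry a disrupted Stat6 gene (the transcription factor that acts downstream of interleukin-4 and interleukin-13), and of wild-type (WT) mice. Both groups were labelled BALB/c and 6 to 8 weeks old, and both drank 3% dextran sulfate sodium (DSS, an agent that injures the colonic epithelium) for 3 days. Untreated colons are not analysed here. Each genotype had 3 libraries of bulk total RNA, and the labels do not say whether these came from separate animals, and p-values then describe only how far these samples spread, which may be technical. The labels name no promoter or cell type for the disruption. The colon was taken after the luminal side was scraped, and the protocol speaks of the proximal intestine while the tissue is labelled colon.

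Ribosome production starts in the nucleolus, where RNA polymerase I copies the ribosomal DNA into a long precursor. Small nucleolar RNPs guide methylation and pseudouridylation of that precursor, a large assembly called the small subunit processome folds and cuts it, and separate sets of factors build the small and the large subunit. MYC is a well known activator of many of these genes, and in the gut dividing crypt cells make more ribosomes than differentiated cells do.

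The libraries held 19555450, 19224779 and 19522272 expected counts in STAT6-/- replicates 1, 2 and 3 and 17137595, 17433876 and 17122315 in WT replicates 1, 2 and 3. Stat6 itself stood at 47.2 ± 7.74 CPM (counts over the TMM-adjusted size of the library; mean ± SD, n = 3 here and below) in STAT6-/- colons and 94.8 ± 8.11 CPM in WT colons. By edgeR's quasi-likelihood test the difference was -1.01 ± 0.16 on the log2 scale (SE) with an adjusted p of 0.0134 by the Benjamini-Hochberg method. The exact permutation p, two-sided, was 0.1, which no 3 libraries against 3 can go below. Every STAT6-/- library had Y-linked transcripts and almost no Xist, and every WT library the reverse (Xist 0.683 ± 0.376 CPM in STAT6-/- and 469 ± 103 CPM in WT), so genotype and sex cannot be told apart in any value below. All 5 colon markers were measured in both groups, at 2547 to 5920 CPM in sum in STAT6-/- and 5582 to 7124 CPM in WT, while the 6 small intestine markers summed to 16.1 to 93.3 CPM in STAT6-/- and 67.9 to 80.2 CPM in WT. In bulk tissue, fewer cells of a type and less RNA per cell cannot be told apart.

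The genes did not move as a block: 5 of the 39 rose in STAT6-/- colons, 3 fell, and 31 did not pass the test. Rrp12, Noc4l and Bms1 of the small subunit and Nle1 and Bop1 of the large subunit rose, and Npm1 of the nucleolar matrix, Nop10 of the pseudouridylation RNPs and Polr1c of RNA polymerases I and III fell. Of the 39 genes 20.5% passed, 12.8% upward and 7.69% downward, beside 22.9% of all 15066 genes tested, 11.4% upward and 11.5% downward, so the share of these genes that passed lay near the background. In log2 fold change 25 of the 39 lay above 0 and 14 below, with a median of 0.20 beside 0.01 for all genes tested. A further 11 had an unadjusted p under 0.05, which makes 19 in all, or 48.7% beside 40.3% of all genes tested. The groups did not overlap in 17 genes, or 43.6% beside 46.5% of all genes tested. Of these 12 lay higher in STAT6-/-, or 30.8% beside 22.0%, and 5 lower, or 12.8% beside 24.5%.

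**Figure D1:**
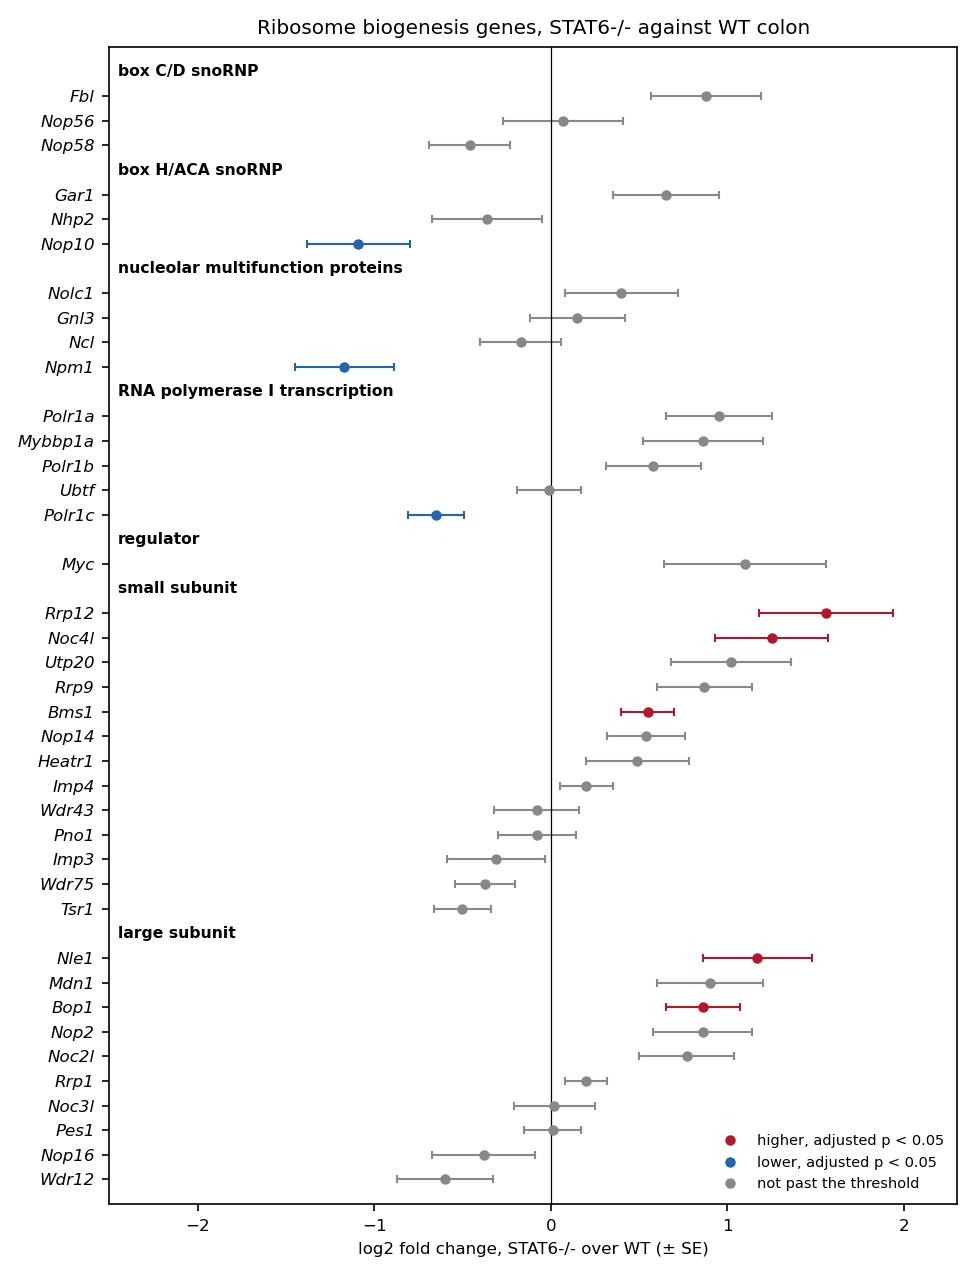
Log2 fold change of each of the 39 genes, STAT6-/- over WT, on the x axis, with its SE as a bar and the genes grouped by role down the page. Red points are the 5 genes that rose, blue points the 3 that fell and grey points the 31 that did not pass the test. The values run from 1.56 for Rrp12 to -1.17 for Npm1, and genes of each role except the single regulator lie on both sides of 0.

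Single libraries set how many passed. Without WT replicate 2 or WT replicate 3, edgeR called 0 of the 39, although 11 and 9 of them had an unadjusted p under 0.05, and only 0.200% and 0.117% of all genes passed. Without STAT6-/- replicate 1 it called 0 higher and 2 lower, Npm1 and Nop58, beside 11.7% of all genes. Without WT replicate 1 it called Rrp12 and Noc4l alone, beside 9.12% of all genes. It called 10 higher and 4 lower without STAT6-/- replicate 2, beside 33.9% of all genes. Without STAT6-/- replicate 3 it called 6 higher and 2 lower, beside 22.6% of all genes. DESeq2 called 12 higher and 3 lower, beside 34.0% of all genes. With replicate number as a block, edgeR called 10 higher and 3 lower, beside 17.7% of all genes. More calls among the 39 therefore did not always come with more calls among all genes. A fit that removed the trends of fold change on GC content and transcript length, added after the data were seen, held 36 of the 39 genes (Nop58, Nop10 and Imp4 had no value) and called 0 of these higher and 1 lower. In that fit 13.3% of all genes passed.

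The start regions of 3 of the genes that changed are shown because they differ in base composition and in the motifs they hold. They come from the promoter table of RefSeq (GRCm38.p6, which is not a BALB/c genome), which was matched by symbol for 34 of the 39 genes, all but Rrp12, Bop1, Fbl, Npm1 and Myc. The windows of Noc4l and Polr1c run into exons of neighbouring genes and are described by their motifs only. Each is the 220 bases on the gene's strand from 250 to 31 bases before an annotated start. Capitals mark matches, on either strand, to the letters CCGGAAGT (an ETS site), TTC and GAA with 4 bases between them (the spaced palindrome that STAT6 binds) or CCAAT (the box bound by NF-Y). Bms1 lies at chr6:118419448-118419667 (minus strand, 61.8% GC, its last 27 printed bases within the first exon of a GENCODE transcript, and all of it within the span of the RefSeq gene given below, which begins further upstream), Nle1 at chr11:82908426-82908645 (minus strand, 56.4% GC, its last bases within the span of the RefSeq gene given below) and Nop10 at chr2:112261676-112261895 (plus strand, 46.4% GC).
Bms1: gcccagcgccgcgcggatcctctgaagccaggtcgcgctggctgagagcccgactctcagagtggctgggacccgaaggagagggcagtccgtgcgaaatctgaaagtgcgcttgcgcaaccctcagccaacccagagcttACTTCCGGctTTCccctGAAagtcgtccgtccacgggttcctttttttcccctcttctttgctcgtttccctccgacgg
Nle1: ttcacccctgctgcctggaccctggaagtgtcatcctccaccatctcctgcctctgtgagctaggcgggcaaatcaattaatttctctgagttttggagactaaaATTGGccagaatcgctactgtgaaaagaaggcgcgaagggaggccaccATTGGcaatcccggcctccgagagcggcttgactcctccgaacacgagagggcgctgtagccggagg
Nop10: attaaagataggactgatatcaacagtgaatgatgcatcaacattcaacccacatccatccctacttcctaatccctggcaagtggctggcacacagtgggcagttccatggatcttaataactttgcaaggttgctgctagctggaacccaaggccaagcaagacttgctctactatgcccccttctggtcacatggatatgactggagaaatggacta
Bms1, which rose, holds the ETS letters and, directly after them, the STAT6 letters, Nle1, which rose, holds the CCAAT letters at 2 places, and Nop10, which fell, holds none of these in the printed stretch. Over whole windows of 250 bases before the start, the ETS letters were in 5 of 42 windows of these genes (11.9%) and in 2.88% of all 32851 windows, namely those of Bms1, Gar1, Heatr1, Nhp2 and Polr1c. The STAT6 letters were in 3 windows (7.14% beside 5.85% of all), of Bms1, Nop14 and Nop16. The E-box CACGTG, the letters MYC binds, was in 2 windows (4.76% beside 6.02%), of Imp4 and Nop2, and CCAAT was in 11 (26.2% beside 33.8%). A match is a description of letters only, and genes with the same match moved both ways: of the 5 with ETS letters Bms1 rose, Polr1c fell and the other 3 did not pass the test.

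In the small subunit group 3 of 13 genes rose and none fell, or 23.1% called beside 22.9% of all genes tested (11.4% upward). The median log2 fold change of the group was 0.49, and it was 0.17 without STAT6-/- replicate 1. Rrp12, which in yeast is needed for maturation and export of ribosomal precursors, had the largest rise of the 39. Rrp12 (chromosome 19, 41859483 to 41896153, mm10) stood at 22.0, 9.87 and 15.8 CPM in STAT6-/- replicates 1, 2 and 3 and at 7.51, 4.84 and 3.86 CPM in WT replicates 1, 2 and 3. All STAT6-/- libraries lay above all WT libraries, 2.94-fold on average (log2 fold change 1.56 ± 0.38, edgeR adjusted p = 0.0308). Rrp12 had an adjusted p of 0.0749 when STAT6-/- replicate 1 was left out and of 0.122 when WT replicate 2 or WT replicate 3 was.

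Noc4l, a partner of Nop14 in the small subunit processome, rose 2.37-fold. Noc4l (chromosome 5, 110648419 to 110653382) stood at 25.9, 18.4 and 16.4 CPM in STAT6-/- libraries and 12.1, 7.51 and 6.01 CPM in WT libraries, without overlap (log2 fold change 1.25 ± 0.32, edgeR adjusted p = 0.0341). Noc4l no longer passed without STAT6-/- replicate 1 (0.0847), WT replicate 2 (0.131) and WT replicate 3 (0.125). Its start lies head to head with that of Ddx51, a helicase gene of the large subunit, which stood at 11.9, 8.25 and 8.94 CPM in STAT6-/- and 6.68, 7.01 and 6.47 CPM in WT (0.53 ± 0.24, edgeR adjusted p = 0.141).

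Bms1, the GTPase of the processome, rose by the least of the 5 genes that rose, 1.46-fold. Bms1 (chromosome 6, 118383381 to 118419802) stood at 44.7, 33.7 and 41.7 CPM in STAT6-/- libraries and at 28.5, 27.0 and 26.5 CPM in WT libraries, where its spread was small (log2 fold change 0.55 ± 0.15, edgeR adjusted p = 0.0432). The groups did not overlap. This call kept its side of the threshold in 8 of 19 alternatives. With 1 library left out, it held only without STAT6-/- replicate 2 (0.0137) and otherwise had an adjusted p of 0.0529 to 0.154.

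The other 10 small subunit genes did not pass the test. Of all 13 in the group, 6 lay higher without overlap, beside 22.0% of all genes tested, and 2 lower, beside 24.5%. Among those that did not pass, Rrp9, Nop14 and Imp4 lay higher and Wdr75 and Tsr1 lower without overlap. Rrp9, the WD-repeat protein of the U3 RNP, stood at 21.9, 13.8 and 12.4 CPM in STAT6-/- and 9.88, 8.87 and 7.60 CPM in WT, with no overlap (0.87 ± 0.27, edgeR adjusted p = 0.0589). Imp3, a U3-binding protein and the most abundant of this group per length (43.3 FPKM, the authors' measure of fragments scaled to length and depth, mean of 6 libraries), stood at 34.8, 48.1 and 21.3 CPM in STAT6-/- and 39.5, 43.1 and 46.2 CPM in WT. The Imp3 groups overlapped (-0.31 ± 0.28, edgeR adjusted p = 0.445). Log2 fold changes of the rest were 1.02 for Utp20 and 0.49 for Heatr1, both large scaffold proteins, 0.54 for Nop14, the partner of Noc4l, and 0.20 for Imp4, which like Imp3 binds U3. They were -0.08 for Wdr43 and -0.37 for Wdr75, both WD-repeat proteins that act at the start of processome assembly, -0.08 for Pno1 and -0.50 for Tsr1, which both act on late small subunit precursors. Tsr1 shares 1240 exon bases with Srr on the opposite strand, and no source used here states whether the counting kept strand, so its value is uncertain.

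Nle1 and Bop1 rose and none fell among the 10 large subunit genes, whose median log2 fold change was also 0.49 and was 0.28 with GC and length trends removed. Nle1, the target of the remodelling ATPase Mdn1 on large subunit precursors, rose 2.25-fold. Nle1 (chromosome 11, 82900768 to 82908446) stood at 10.5, 6.27 and 8.62 CPM in STAT6-/- libraries and 4.38, 2.85 and 4.03 CPM in WT libraries, with no overlap (log2 fold change 1.17 ± 0.31, edgeR adjusted p = 0.0376). With 1 library left out it passed only without STAT6-/- replicate 2 (0.0171), and its adjusted p was otherwise 0.0579 to 0.142.

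Bop1, the scaffold of the PeBoW complex of the proteins Pes1, Bop1 and Wdr12, rose 1.82-fold. Bop1 (chromosome 15, 76452988 to 76477249) stood at 58.9, 37.4 and 41.5 CPM in STAT6-/- libraries and 28.4, 25.6 and 21.7 CPM in WT libraries (log2 fold change 0.86 ± 0.21, edgeR adjusted p = 0.0308). The lowest STAT6-/- library lay above the highest WT library. Leaving out STAT6-/- replicate 1 gave Bop1 an adjusted p of 0.0574, and leaving out WT replicates 1, 2 and 3 in turn gave 0.0656, 0.114 and 0.125. Neither partner passed the test: Pes1 had a log2 fold change of 0.01 ± 0.16 (edgeR adjusted p = 0.958) and Wdr12 one of -0.60 ± 0.27 (0.144).

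A further 3 large subunit genes lay higher in all STAT6-/- libraries than in any WT library without passing the test. That makes 5 of the 10 large subunit genes higher without overlap, beside 22.0% of all genes tested. Nop2, a methyltransferase of large subunit ribosomal RNA, stood at 34.6, 21.3 and 20.8 CPM in STAT6-/- and 17.7, 13.5 and 11.2 CPM in WT (0.86 ± 0.28, edgeR adjusted p = 0.0627). Mdn1, the giant ATPase that strips factors from the precursor, stood at 28.8, 13.9 and 20.7 CPM in STAT6-/- and 13.6, 9.24 and 11.1 CPM in WT (0.90 ± 0.30, edgeR adjusted p = 0.0679). Mdn1 was also the least abundant of the 39 per length, at 0.902 FPKM. Rrp1, the most abundant of this group per length at 48.0 FPKM, stood at 106, 100.4 and 102 CPM in STAT6-/- and 92.6, 89.0 and 87.4 CPM in WT, a difference of 0.20 ± 0.12 on the log2 scale (edgeR adjusted p = 0.255). Noc2l, Noc3l and Nop16, which also act on large subunit precursors, had log2 fold changes of 0.77, 0.02 and -0.38 and overlapped between groups. Noc2l shares 598 exon bases with Samd11 on the opposite strand.

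**Figure D2:**
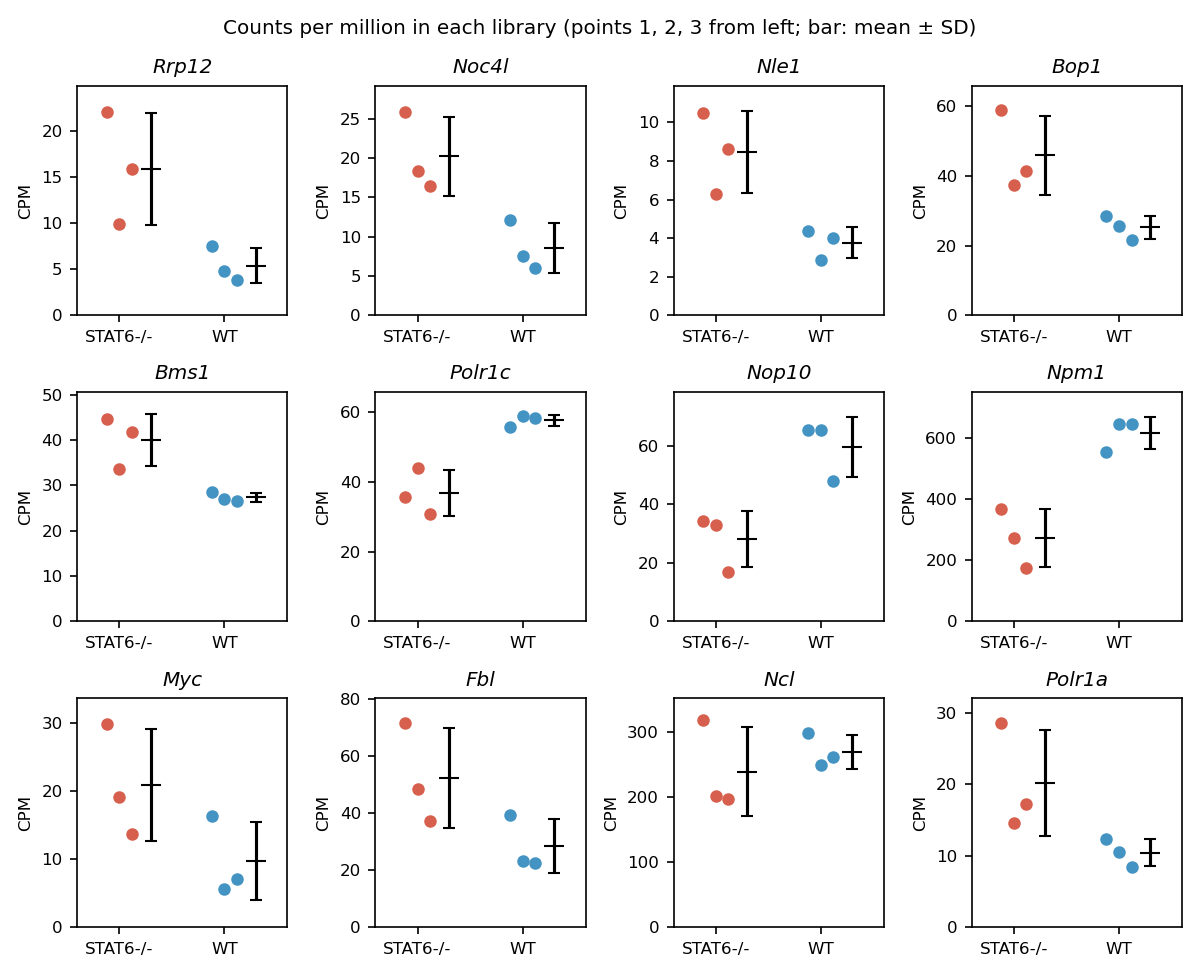
CPM of 12 of the genes in each library, with STAT6-/- left of WT in each panel, points for replicates 1, 2 and 3 from left to right, and a bar for the mean with its SD. Rrp12, Noc4l, Nle1, Bop1 and Bms1 lie higher and Polr1c, Nop10 and Npm1 lower in STAT6-/- with no overlap, while Myc, Fbl and Ncl overlap between the groups and Polr1a does not.

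In the RNA polymerase I group 1 of 5 genes fell and none rose, with a median log2 fold change of 0.58, which was 0.35 with GC and length trends removed. Polr1c, a subunit shared by RNA polymerases I and III, fell to 35.8, 43.9 and 30.8 CPM in STAT6-/- libraries, against 55.8, 58.8 and 58.4 CPM in WT libraries. On chromosome 17 (46243920 to 46248045), it had a log2 fold change of -0.65 ± 0.16 (edgeR adjusted p = 0.0309) and no overlap between groups. Polr1c was the single gene of the 36 with a value that passed with GC and length trends removed (-0.68, adjusted p = 0.0347). With 1 library left out it passed without STAT6-/- replicate 2 (0.0107) and missed otherwise (0.0513 to 0.119). Its head-to-head neighbour Yipf3, a Golgi protein gene, stood at 89.8, 125 and 99.4 CPM in STAT6-/- and 69.9, 77.5 and 64.8 CPM in WT (0.57 ± 0.17, edgeR adjusted p = 0.0510).

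The other 4 genes of that group did not pass. Polr1a, the largest subunit of RNA polymerase I, stood at 28.6, 14.6 and 17.3 CPM in STAT6-/- and 12.4, 10.5 and 8.51 CPM in WT, without overlap (0.95 ± 0.30, edgeR adjusted p = 0.0603). Polr1b, the second largest subunit, stood at 14.9, 11.6 and 10.2 CPM in STAT6-/- and 10.6, 7.13 and 6.81 CPM in WT, with overlap (0.58 ± 0.27, edgeR adjusted p = 0.157). Both of these values lay on the other side of 0 from Polr1c. Mybbp1a, a nucleolar protein known to restrain ribosomal DNA transcription, stood at 105, 49.0 and 58.5 CPM in STAT6-/- and 52.5, 29.4 and 34.7 CPM in WT (0.86 ± 0.34, edgeR adjusted p = 0.104). Ubtf, the architectural factor of ribosomal DNA chromatin, had a log2 fold change of -0.01 ± 0.18, which lay between -0.15 and 0.17 with 1 library left out and took either sign with the scaling.

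Myc had a 2.15-fold higher level in STAT6-/- colons but did not pass the test, although edgeR with a replicate block called Myc higher. It stood at 29.8, 19.2 and 13.7 CPM in STAT6-/- libraries and 16.3, 5.71 and 7.15 CPM in WT libraries (log2 fold change 1.10 ± 0.46, edgeR adjusted p = 0.122). WT replicate 1 lay above STAT6-/- replicate 3, so the groups overlapped, and the value was 1.69 without WT replicate 1 and 0.79 without STAT6-/- replicate 1. Of 10 other genes of the MYC network, 1 rose, the MAX partner Mxd3, at 6.58, 4.07 and 2.54 CPM in STAT6-/- and 1.48, 0.745 and 1.08 CPM in WT (1.99 ± 0.47, edgeR adjusted p = 0.0282). Mxd3 had an adjusted p of 0.0690 when STAT6-/- replicate 1 was left out, 0.0583 for WT replicate 1, and 0.115 for each of WT replicates 2 and 3. The MAX partners Mnt and Mxd1 had log2 fold changes of 0.73 and -0.05 and did not pass.

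Among 4 nucleolar proteins with several functions 1 fell and none rose, with a median log2 fold change of -0.01, which ran from -0.24 without STAT6-/- replicate 1 to 0.16 without STAT6-/- replicate 2. Npm1, or nucleophosmin, a chaperone that builds the outer layer of the nucleolus, had the largest fall. It stood at 368, 274 and 176 CPM in STAT6-/- libraries and 554, 646 and 645 CPM in WT libraries. Npm1 (chromosome 11, 33152498 to 33164142) fell 2.26-fold with no overlap (log2 fold change -1.17 ± 0.28, edgeR adjusted p = 0.0291). It was also the most abundant of the 39 per length, at 201 FPKM in STAT6-/- and 425 FPKM in WT. Leaving out WT replicate 1 gave Npm1 an adjusted p of 0.0661, leaving out WT replicate 2 or 3 gave 0.108, and its log2 fold change with GC and length trends removed was -0.74 (adjusted p = 0.0685). Npm1 has processed copies elsewhere in the mouse genome, and how reads were divided between them is not known.

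The files list 2 RefSeq transcripts of Npm1, and the minor one took a larger share of the gene's counts in STAT6-/- colons: 19.0%, 14.5% and 14.6% in STAT6-/- libraries and 11.3%, 9.61% and 10.5% in WT libraries. The shares did not overlap, and in expected counts the major transcript stood at 6386, 4481 and 2849 in STAT6-/- and 8310, 9418 and 10180 in WT. The minor one stood at 1494, 761 and 487 in STAT6-/- and 1056, 1001 and 1196 in WT, with overlap. This division is an estimate by RSEM from reads that the transcripts largely share, and no test was run on it.

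The 3 other nucleolar proteins of this group did not pass. Ncl, or nucleolin, a histone and RNA chaperone that is among the most abundant nucleolar proteins, stood at 317, 202 and 197 CPM in STAT6-/- and 298, 248 and 261 CPM in WT (-0.17 ± 0.23, edgeR adjusted p = 0.598). STAT6-/- replicate 1 was the highest of all 6 libraries and STAT6-/- replicate 3 the lowest. Ncl had 30.4 FPKM, a level that implies an effective length of 8397 bases in the authors' table. Nolc1, which escorts small nucleolar RNPs, stood at 51.6, 26.2 and 25 CPM in STAT6-/- and 32.9, 23.3 and 21.7 CPM in WT (0.40 ± 0.32, edgeR adjusted p = 0.386). Gnl3, or nucleostemin, a GTPase of proliferating cells, stood at 28.3, 15.8 and 19.4 CPM in STAT6-/- and 24.1, 17 and 16.2 CPM in WT (0.15 ± 0.27, edgeR adjusted p = 0.711).

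Among the 3 box H/ACA proteins, which hold the RNAs that guide pseudouridylation, Nop10 fell and none rose. That is 33.3% called, beside 22.9% of all genes tested (11.5% downward). The median log2 fold change of the 3 was -0.36. That median was -0.03 without STAT6-/- replicate 3, and 0.15 for the pair other than Nop10 with GC and length trends removed. Nop10 (chromosome 2, 112261926 to 112262898), the smallest core protein of these RNPs and of telomerase, stood at 34.3, 32.9 and 17 CPM in STAT6-/- libraries and 65.5, 65.5 and 47.9 CPM in WT libraries. It was 2.12-fold lower in STAT6-/- without overlap (log2 fold change -1.09 ± 0.29, edgeR adjusted p = 0.0378). Nop10 no longer passed without STAT6-/- replicate 1 (0.0606) and without WT replicate 1 (0.10), 2 (0.129) or 3 (0.0915). Nhp2, its neighbour in the core, stood at 48.9, 39.8 and 20.9 CPM in STAT6-/- and 54.2, 47.3 and 38.9 CPM in WT (-0.36 ± 0.31, edgeR adjusted p = 0.415). Gar1, which helps release the modified RNA, stood at 14.4, 10.3 and 8.73 CPM in STAT6-/- and 9.11, 6.45 and 5.67 CPM in WT (0.65 ± 0.30, edgeR adjusted p = 0.144). Both overlapped between groups.

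None of the 3 box C/D proteins, which carry out guided ribose methylation, passed edgeR's test, and 1 had an unadjusted p under 0.05, with a group median of 0.07, which was -0.34 without STAT6-/- replicate 1 and 0.34 without STAT6-/- replicate 3. The gene was Fbl, or fibrillarin, the methyltransferase, at 71.5, 48.4 and 37.2 CPM in STAT6-/- and 39.3, 23.3 and 22.6 CPM in WT (0.88 ± 0.31, edgeR adjusted p = 0.0807). WT replicate 1 lay above STAT6-/- replicate 3, and DESeq2 and edgeR with a replicate block called Fbl higher. Nop58 stood at 66.1, 45.7 and 36.0 CPM in STAT6-/- and 67.1, 71.7 and 64.3 CPM in WT (-0.46 ± 0.23, edgeR adjusted p = 0.171), and Nop58 passed without STAT6-/- replicate 1 (-0.69, adjusted p = 0.0486). Nop56, the partner of Nop58 in the same core, stood at 61.0, 31.8 and 26.6 CPM in STAT6-/- and 48.0, 34.6 and 31.0 CPM in WT (0.07 ± 0.34, edgeR adjusted p = 0.890). The log2 fold change of Nop56 ran from -0.34 to 0.34 with 1 library left out.

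For partner genes of a complex, the ratio of their FPKM within each library did not overlap between the groups in 10 of 12 pairs. No share of such ratios over other gene pairs was computed, and pairs of a complex share genes, so this count has no background. The 12 are all the pairs within PeBoW, box H/ACA, box C/D and the 3 RNA polymerase I subunits. The pairs were chosen after the values were seen, the gene with the higher fold change stands first in each, and they carry no test, so the direction is set by that choice. Bop1 to Wdr12 was 5.41, 6.26 and 6.32 in STAT6-/- libraries and 2.31, 2.01 and 2.05 in WT libraries. Fbl to Nop58 was 1.87, 1.83 and 1.79 in STAT6-/- libraries and 1.01, 0.563 and 0.608 in WT libraries. In these 2 pairs the STAT6-/- libraries lay close together, although each gene alone varied between them. Other pairs, such as Polr1a to Polr1c and Gar1 to Nhp2, spread more widely between STAT6-/- libraries. Polr1a to Polr1c was 0.166, 0.0693 and 0.117 in STAT6-/- and 0.0462, 0.0370 and 0.0302 in WT, and Gar1 to Nop10 was 0.238, 0.177 and 0.292 in STAT6-/- and 0.0790, 0.0559 and 0.0673 in WT. Among the others the mean ratio was 1.05 ± 0.120 in STAT6-/- and 0.582 ± 0.0637 in WT for Bop1 to Pes1, 0.107 ± 0.0245 in STAT6-/- and 0.0456 ± 0.0132 in WT for Polr1b to Polr1c, 0.254 ± 0.0655 in STAT6-/- and 0.118 ± 0.0128 in WT for Gar1 to Nhp2, and 2.27 ± 0.296 in STAT6-/- and 1.23 ± 0.120 in WT for Fbl to Nop56. The mean for Pes1 to Wdr12 was 5.81 ± 1.04 in STAT6-/- and 3.66 ± 0.317 in WT, and that for Nhp2 to Nop10 was 0.933 ± 0.0856 in STAT6-/- and 0.571 ± 0.0415 in WT. The ratios of Polr1a to Polr1b, at 1.25, 0.821 and 1.11 in STAT6-/- and 0.760, 0.957 and 0.809 in WT, and of Nop56 to Nop58, at 0.959, 0.722 and 0.768 in STAT6-/- and 0.744, 0.502 and 0.50 in WT, overlapped between groups.

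**Figure D3:**
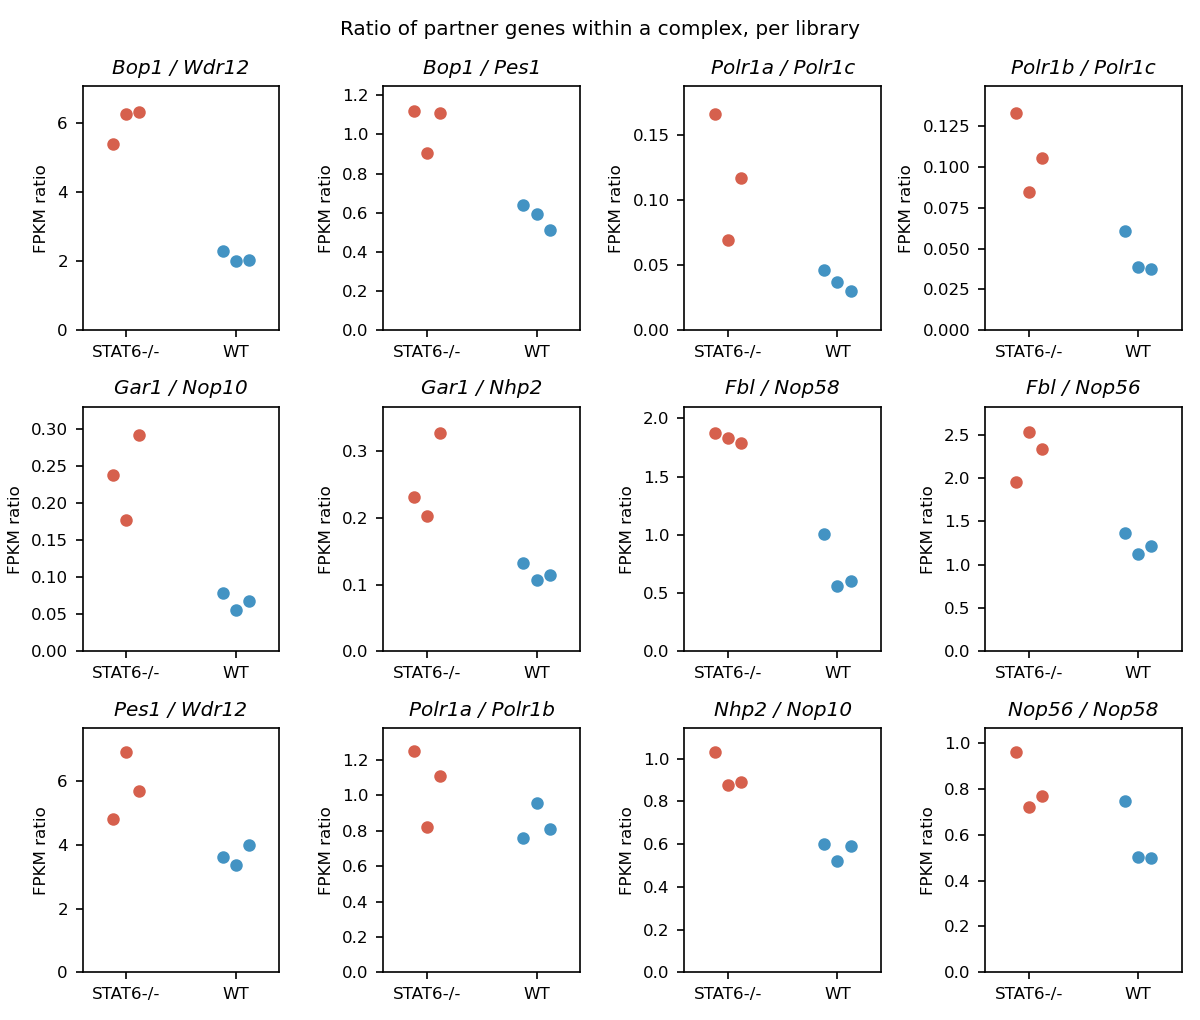
Ratio of the FPKM of a pair of partner genes in each library, 12 pairs, with STAT6-/- (red) left of WT (blue) and points for replicates 1, 2 and 3 from left to right. In 10 of the 12 pairs the ratio is higher in every STAT6-/- library than in any WT library (not in Polr1a to Polr1b and Nop56 to Nop58), with Bop1 to Wdr12 at 5.41 to 6.32 in STAT6-/- and 2.01 to 2.31 in WT.

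STAT6-/- replicate 1 stood apart in these genes. It had the highest value of the 3 STAT6-/- libraries in 35 of the 39 genes, while that library was the highest of its group in 29.8% of all genes tested. It was the highest of all 6 libraries in 28 of the 39, a count for which no share over all genes was computed. Relative to the WT mean, the median deviation over the 39 genes was 0.70, 0.16 and 0.08 on the log2 scale in STAT6-/- replicates 1, 2 and 3 and 0.17, -0.06 and -0.08 in WT replicates 1, 2 and 3. Over all genes tested it was -0.03, -0.02 and -0.01 in STAT6-/- and -0.01, 0.03 and -0.02 in WT. Spread between libraries was also wider in STAT6-/-: the median SD of log2 CPM was 0.423 in STAT6-/- and 0.194 in WT for these genes, and 0.339 and 0.179 for all genes tested. Of the 39 genes 35 varied more in STAT6-/-, beside 76.2% of all genes tested.

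**Figure D4:**
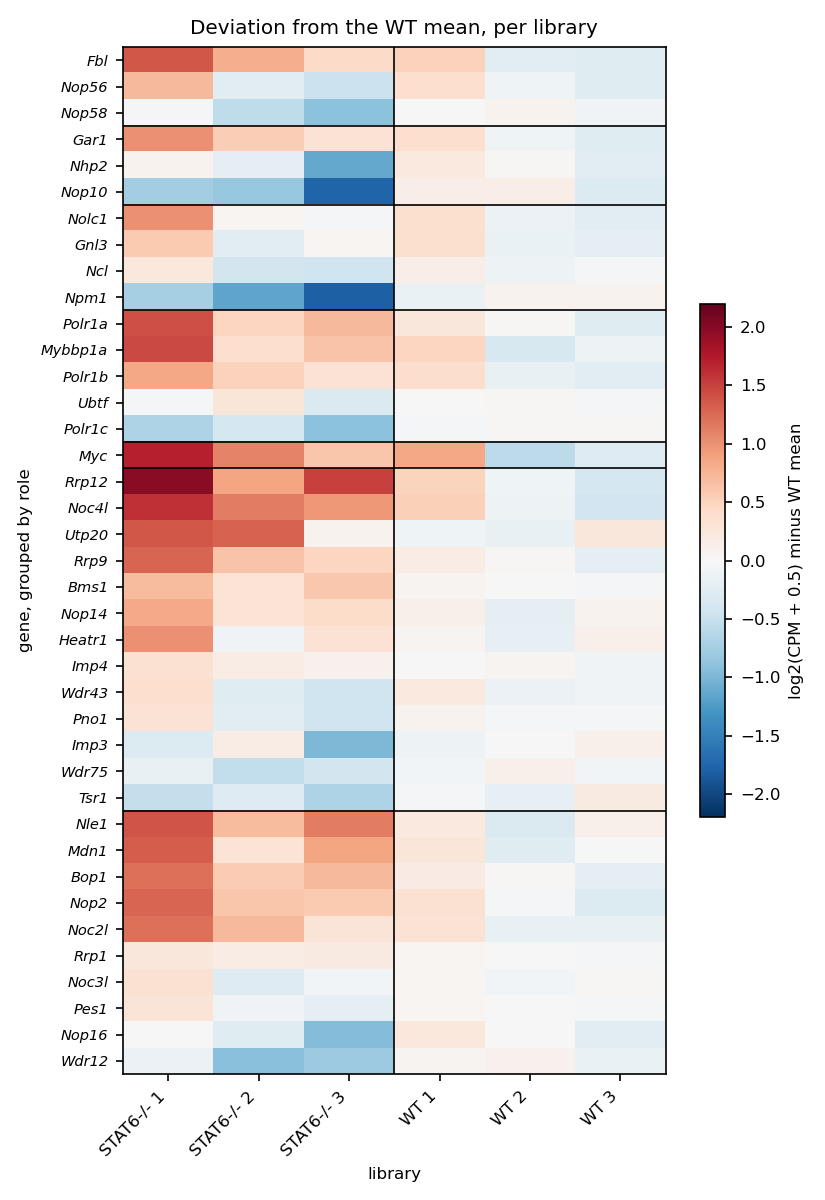
Deviation of log2(CPM + 0.5) from the WT mean for each of the 39 genes (down, grouped by role) in each library (across, STAT6-/- left of WT), red above and blue below the WT mean. The column of STAT6-/- replicate 1 is the reddest, with a median of 0.70, while Npm1, Nop10 and Polr1c are blue in all 3 STAT6-/- libraries.

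The proliferation, B cell and T cell sums were highest in the same library, while those of other lists were not. The 11 proliferation genes summed to 1013, 550.4 and 368 CPM in STAT6-/- replicates 1, 2 and 3 and 353, 205 and 177 CPM in WT replicates 1, 2 and 3. Of these, 3 rose and none fell, or 27.3% beside 11.4% of all genes tested that rose (22.9% called in either direction). All 11 had a log2 fold change above 0, with a median of 1.85. Without overlap 7 of the 11 lay higher, beside 22.0% of all genes tested. Mki67, the marker of cycling cells, stood at 223, 149 and 88.0 CPM in STAT6-/- and 67.0, 25.9 and 27.5 CPM in WT (1.94 ± 0.48, edgeR adjusted p = 0.0319). Mcm3 and Top2a of DNA replication and chromosome untangling rose with log2 fold changes of 2.17 and 2.06, and Pcna, the most abundant, had 0.26. Mki67 had an adjusted p of 0.0763 when STAT6-/- replicate 1 was left out, 0.119 without WT replicate 2 and 0.125 without WT replicate 3. All 3 calls were lost without each of these 3 libraries, and without STAT6-/- replicate 1 the log2 fold changes of Mcm3 and Top2a were 1.53 and 1.49. With GC and length trends removed Mki67 passed (2.11, adjusted p = 0.0477), while Mcm3 (1.88, adjusted p = 0.0696) and Top2a (2.2, adjusted p = 0.0537) did not. WT replicate 1 was the highest WT library in this sum, and it also had the highest median of the WT libraries over the 39 genes. The 4 B cell markers summed to 255, 22.4 and 43.9 CPM in STAT6-/- and 37.0, 40.6 and 26.6 CPM in WT with none called by edgeR, and the 4 T cell markers to 39.1, 6.58 and 15.7 CPM in STAT6-/- and 11.3, 11.9 and 10.4 CPM in WT with 1 higher. The 6 epithelial markers, 2 of them higher, summed to 10907, 12779 and 17542 CPM in STAT6-/- and 8011, 9819 and 6983 CPM in WT, and the 4 smooth muscle markers, 3 of them lower, to 1251, 1831 and 2935 CPM in STAT6-/- and 5268, 4336 and 5786 CPM in WT. Of 4 adipocyte markers 3 were tested and fell, and the sum was 7.51, 9.19 and 20.8 CPM in STAT6-/- and 40.2, 71.7 and 232 CPM in WT. STAT6-/- replicate 1 was thus the lowest of its group in these 3 sums. The macrophage markers, none of them called, summed to 433, 155 and 489.8 CPM in STAT6-/- and 152, 189 and 208 CPM in WT. The part of these cell populations in the values of the ribosome biogenesis genes was not tested.

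Fold change in these genes also went with base composition. GC content was available for 36 of the 39 (not for Nop58, Nop10 and Imp4), and across these genes the Spearman correlation of log2 fold change with transcript GC content was 0.531, beside 0.277 over 13454 genes tested, given as a description of points that share the same 6 libraries. Of 20 genes at or above the median GC content of 50.6%, 15 had a log2 fold change above 0, with a median of 0.82. Of 16 genes below it, 9 did, with a median of 0.02. Over all genes the shares above 0 were 63.5% and 39.5%. With these trends and those on length removed, 30 of the 36 kept their sign and the median was 0.36, while 13.3% of all genes passed. The log2 fold changes in that fit were 1.16 for Rrp12, 0.98 for Noc4l, 0.93 for Nle1, 0.50 for Bop1 and 0.42 for Bms1, with adjusted p of 0.0677, 0.0632, 0.0756, 0.112 and 0.0824. The part of base composition in these values was not tested further.

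**Figure D5:**
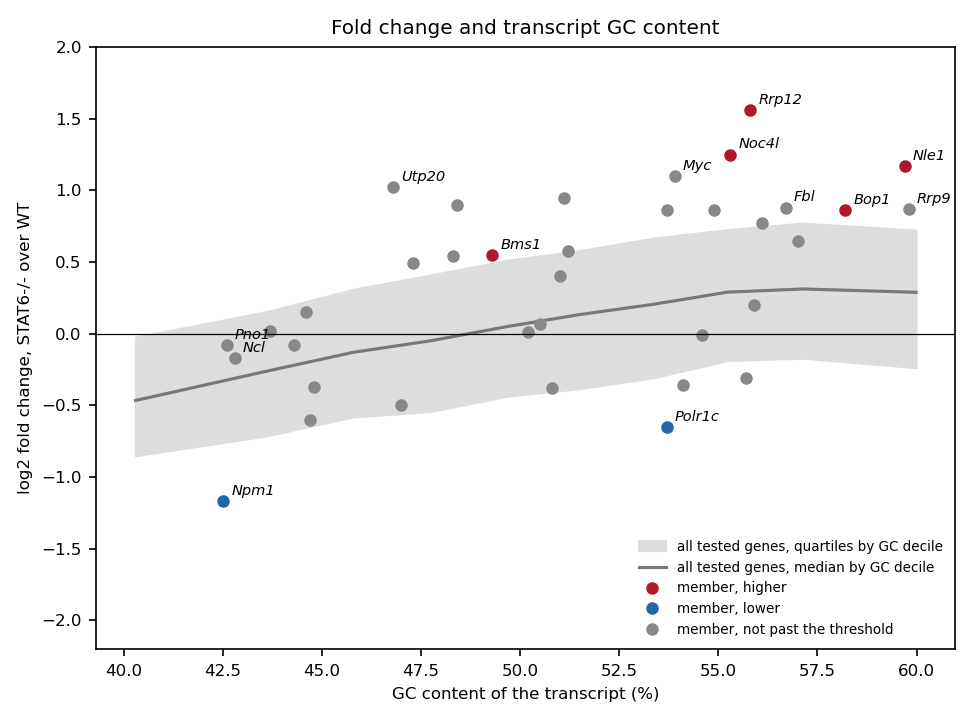
Log2 fold change, STAT6-/- over WT, against the GC content of the transcript in percent for 36 of the genes (points), with the median (line) and quartiles (band) of all genes tested in bins of GC content. Red points rose, blue points fell and grey points did not pass the test. The line climbs with GC content up to the upper bins, Npm1 lies at the low end at 42.5% GC, and Polr1c lies below 0 at 53.7% GC.

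The lists of other small subunit factors, other large subunit factors, snoRNP assembly and RNA polymerase III each held genes that rose and genes that fell. The calls in the lists of other RNA polymerase I genes, the exosome and RNase MRP, and the p53 response were all downward, beside 11.5% of all genes tested that fell. The shares called were 21.1% for the other small subunit factors, 21.4% for the large subunit, 9.09% for RNA polymerase I, 30% for RNA polymerase III, 25% for snoRNP assembly, 13.6% for the exosome and RNase MRP and 25% for the p53 response, beside 22.9% of all genes tested. With GC and length trends removed, most calls named here were lost: the log2 fold change was -0.15 for Fcf1 (adjusted p = 0.491), -0.72 for Esf1 (0.0761), 0.74 for Bysl (0.0877), 0.37 for Ddx54 (0.149), -0.28 for Znrd1 (0.249), 0.51 for Gtf3c1 (0.105) and -0.59 for Polr3k (0.0597). It was -0.44 for Tgs1 (0.106), -0.38 for Exosc9 (0.124), -0.07 for C1d (0.751), -0.75 for Snhg8 (0.0518) and -0.76 for Trp53inp1 (0.0517), and Snu13 had no value. Nsa2 (-0.92, adjusted p = 0.0242), Ruvbl2 (1.02, 0.0460), Rpp14 (-0.69, 0.0434), Ccng1 (-0.87, 0.0333) and Phlda3 (-1.08, 0.0492) passed there. Each call named here from these lists was lost without WT replicate 2 and without WT replicate 3, where the adjusted p of Fcf1 was 0.0825 and 0.0767 and that of Nsa2 was 0.0693 and 0.0721. Of 38 other small subunit factors 4 rose and 4 fell (median log2 fold change -0.12). Fcf1, a nuclease-like processome protein, fell to 35.7, 30.8 and 28.6 CPM in STAT6-/-, against 51.3, 60.4 and 53.4 CPM in WT (-0.80 ± 0.15, edgeR adjusted p = 0.0161), and Esf1, whose yeast counterpart acts in ribosomal RNA processing, fell with a log2 fold change of -1.05 ± 0.23. Bysl, which acts late on the small subunit, rose to 27.9, 18.3 and 19.0 CPM in STAT6-/-, against 12.9, 9.55 and 8.00 CPM in WT (1.10 ± 0.27, edgeR adjusted p = 0.0299), and was chosen after its value was seen.

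Of 42 other large subunit factors 5 rose and 4 fell (median 0.06). Nsa2 fell to 123, 137 and 101 CPM in STAT6-/-, against 243, 321 and 288 CPM in WT (-1.24 ± 0.19, edgeR adjusted p = 0.0121), and the helicase Ddx54 rose to 89.0, 79.5 and 74.6 CPM in STAT6-/-, against 48.0, 51.8 and 42.9 CPM in WT (0.77 ± 0.14, edgeR adjusted p = 0.0157). Eif6, which keeps immature large subunits from joining and is the most abundant of this list, had 0.31 ± 0.21 and did not pass. Of 11 other RNA polymerase I genes 1 fell, the subunit gene Znrd1 (-0.77 ± 0.20, edgeR adjusted p = 0.0349), with a median of -0.51. Polr1d, which like Polr1c serves RNA polymerases I and III and is the most abundant there, stood at 95.3, 141 and 81.9 CPM in STAT6-/- and 174, 178 and 154 CPM in WT (-0.67 ± 0.22, edgeR adjusted p = 0.0679), and Taf1c of the promoter selectivity factor had 0.55.

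Of 20 RNA polymerase III genes 3 rose and 3 fell (median 0.03). Gtf3c1, the largest subunit of factor TFIIIC, rose (0.83 ± 0.14, edgeR adjusted p = 0.0138), Polr3k, a small polymerase subunit, fell (-0.86 ± 0.16, edgeR adjusted p = 0.0165), and the repressor Maf1 had -0.38. Among 12 snoRNP assembly genes 1 rose and 2 fell (median -0.04): the ATPase Ruvbl2 rose (1.22 ± 0.29, edgeR adjusted p = 0.0284), while the cap methylase Tgs1 (-0.65) and Snu13, a core protein of the box C/D particle (-0.76), fell. Of 22 exosome and RNase MRP genes tested 3 fell and none rose (median -0.20), namely Rpp14, Exosc9 and C1d at -0.86, -0.69 and -0.54, and the exonuclease Xrn2 had -0.07. Of 7 snoRNA host genes tested Snhg8 fell (-1.36 ± 0.26, edgeR adjusted p = 0.0172), Snhg12 and Snhg1 had -0.47 and -0.08, and the median was -0.08. With GC and length trends removed that median was 0.60, and Snhg6 passed as higher (1.49, adjusted p = 0.0322). In the p53 response, which impaired ribosome assembly can trigger, 3 of 12 genes fell, Trp53inp1, Ccng1 and Phlda3 at -1.12, -1.14 and -0.94, none rose, the median was -0.10 and the cell cycle inhibitor Cdkn1a had -0.34.

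Ribosomal protein genes, whose products these factors assemble onto the RNA, fell in large number. Of 80 cytosolic ribosomal protein genes tested 65 fell and none rose, beside 11.5% of all genes tested that fell, with a median log2 fold change of -1.20. Rps4x fell to 577, 593 and 419 CPM in STAT6-/-, against 1602, 1922 and 1610 CPM in WT (-1.69 ± 0.23, edgeR adjusted p = 0.00984), and Rpl37a and Rpl41, the most abundant, fell with log2 fold changes of -1.62 and -1.19. Ribosomal protein genes have many near-identical copies in the genome, so the division of their reads is uncertain. Their median was -0.82 with GC and length trends removed, where 39 of 68 with a value fell. All 65 calls were lost without WT replicate 2 and without WT replicate 3, where Rps4x had an adjusted p of 0.0641 and 0.0675. Npm1 and Nop10 fell by about as much as these genes did, while the median of the 39 ribosome biogenesis genes was 0.20.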

How the data were processed

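RNA sequencing of colon tissue from 3 STAT6-/- and 3 WT samples was analysed from 1 table per library. The expected counts, deposited by the authors per RefSeq transcript, carry no scaling across libraries, per the file headers. The deposited FPKM correct for the length of each transcript and the depth of each library, per the file headers. Per the submitters' processing notes, Bowtie2 2.2.5, RSEM 1.2.12 and mm10 were used. Listed values start at an FPKM of 0.01, and a transcript not listed in a library was taken as 0.

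Of 28238 transcripts, 27981 were named from RefSeq annotation of GRCm38.p6 (which mm10 is based on), 154 from GENCODE M21, and 103, with 0.167% of the counts, were left without a name. Counts were summed per gene and rounded. edgeR 4.0.16 (R 4.3.3) tested genotype with its quasi-likelihood F test, TMM factors, filterByExpr and robust estimation. Benjamini-Hochberg adjustment covered 15066 genes, with 0.05 as threshold, and "rose" or "fell" is written only of genes past it. Unless another tool is named, each adjusted p is from edgeR. CPM are means ± SD over 3 libraries. The common dispersion was 0.102. Stat6 also had an exact permutation test. The test was also run on simulated counts with the common dispersion for every gene in both groups. That run does not cover the wider spread between STAT6-/- libraries.

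The 39 genes and all lists were chosen with earlier results of these data known. Library values are given for Myc, Ncl, Npm1, Fbl, for up to 4 genes per role by p and the one highest in FPKM, and other lists name 2 genes by p and the one highest in FPKM. Genes named beside these were chosen after their values were seen. GC content came from the GENCODE transcript within 1.5 times the effective length in the files.

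Alternatives were DESeq2 1.42.0, limma-voom (limma 3.58.1), other scalings and filters, no robust estimation, limma on log2 FPKM plus 1 or 0.1, each library left out in turn, a replicate block, removal of genes with over 1% of a library, and the GC and length fit, chosen after seeing the data. Plots were made in matplotlib 3.10.9.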

Additional observations from a re-analysis of the deposited data

How the results depend on the processing

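The median log2 fold change of the 39 genes stayed between 0.16 and 0.36 in every alternative, and no scaling moved the median of all genes by over 0.1. All 8 genes that passed kept their direction in every alternative where they had a value, and Npm1, Noc4l and Rrp12 kept their call in 15 of 19. The counts of calls moved more. DESeq2 called 12 of the 39 higher, 2713 of all genes higher, and 5, 14, 15 and 9 genes of the other RNA polymerase I, other small subunit, other large subunit and proliferation lists. Those of the 39 that only DESeq2 and not the main fit called were Fbl, Polr1a, Rrp9, Utp20, Nop2, Noc2l and Mdn1. The fit for GC content and length had 0 of 36 higher and 1 lower (Nop58, Nop10 and Imp4 had no value) and 909 of all genes higher and 881 lower, and its calls in the lists numbered 0 for RNA polymerase I, 0 for the small subunit, 2 for the large subunit, 1 each for snoRNP assembly, the exosome and proliferation, 0 for RNA polymerase III and 39 for ribosomal proteins. The other RNA polymerase I list had 2 calls with limma-voom, RLE scaling, upper quartile scaling and the 1 CPM filter. The other small subunit list had 5 with upper quartile scaling and both FPKM fits, and the exosome list had 1 with library size only, no filter and both FPKM fits. Proliferation had 1 with no filter.

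The labels state no pairing of same-numbered libraries. Deviations of same-numbered libraries correlated at 0.023, 0.0445 and 0.134, and STAT6-/- replicates 1 and 3 correlated best with their own number but STAT6-/- replicate 2 with WT replicate 1. With 3 libraries per group these values cannot settle whether the samples were paired. A replicate block called 10 of the 39 higher and 3 lower, beside 1219 of all genes higher and 1445 lower, or 17.7% in all. Beside the main fit, the block added Fbl, Mybbp1a, Myc, Nop2, Noc2l and Mdn1 and lost Bms1. The block called 5, 1, 2 and 9 genes of the small subunit, exosome, RNA polymerase III and proliferation lists.

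With 1 library left out, calls ran from 0 to 10 (higher) and 0 to 4 (lower) for the 39, from 12 to 2750 and from 6 to 2440 for all genes, and from 0 to 2 for RNA polymerase I and for the MYC network. They ran from 0 to 11 for the small subunit, 0 to 10 for the large subunit, 0 to 3 for snoRNP assembly, the exosome and the p53 response, 0 to 7 for RNA polymerase III and proliferation, 0 to 1 for snoRNA hosts and 0 to 68 for ribosomal proteins. Stat6 ran from -1.06 to -0.85 and lost its call without WT replicate 2 (-0.94) or 3 (-1.06). The cause of the losses without these WT libraries was not tested. Depth limits the 39 genes little, the lowest value being 46 counts in a library.

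Most sign changes were of genes near 0, and Snhg1 and Snhg12 moved further. With GC and length trends removed the values were -0.00 for Nop56, 0.08 for Ncl, 0.03 for Wdr43, 0.31 for Pno1, -0.15 for Pes1, -0.07 for Rrp1, 0.94 for Snhg1, 0.10 for Snhg12 and 0.07 for Xrn2. Ubtf had 0.01 with DESeq2 and RLE scaling, 0.05 with library size only, 0.03 with no filter and 0.02 in both FPKM fits. With 1 library left out, ranges that cross 0 were -0.34 to 0.34 for Nop56, -0.09 to 0.35 for Gnl3, -0.15 to 0.17 for Ubtf, -0.33 to 0.12 for Wdr43, -0.30 to 0.11 for Pno1, -0.14 to 0.18 for Noc3l, -0.10 to 0.16 for Pes1, -0.20 to 0.08 for Mxd1, -0.35 to 0.27 for Snhg1 and -0.14 to 0.06 for Xrn2. Upper quartile scaling gave -0.02 for Noc3l and Pes1, the replicate block -0.01 for Noc3l and -0.00 for Pes1, and limma-voom -0.00 for Pes1. The cause was not tested.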
